A study of Mus musculus with 4 samples.

Results

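The nuclear genes for subunits of the mitochondrial respiratory chain and ATP synthase were followed from total RNA to the RNA recovered with the ribosomal protein RPS2 in cultured mouse cortical neurons. Members were the protein-coding nuclear genes whose symbols match the subunit names of complexes I to V (Nduf, Sdh, Uqcr and Cyc1, Cox4 to Cox8, and Atp5). The rule found 86 of 31053 genes, with 37 in complex I, 4 in complex II, 9 in complex III, 18 in complex IV and 18 in complex V. The 13 mitochondrially encoded mRNAs served as reference. Primary cortical neurons were wild type (WT) and, per the study's methods, came from E18 C57BL/6J embryos and were grown with floxuridine, which limits dividing cells. In RPS2 eCLIP, RNA is crosslinked to protein, trimmed with RNase I and pulled down with an antibody, here to RPS2, a protein of the small subunit of the cytosolic ribosome. There were 2 RPS2 IP libraries, labelled with rRNA depletion as treatment, and 2 total RNA libraries, labelled with no treatment, taken before the pulldown. If those labels hold, any effect of the depletion step and the IP cannot be told apart. The IP libraries held 16460545 and 9941486 counts, and the total RNA libraries 5281196 and 4899718.

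Respiratory complexes I to IV pass electrons from NADH and succinate to oxygen and, apart from complex II, pump protons across the inner mitochondrial membrane, and complex V, the ATP synthase, uses that gradient to make ATP. Most subunits are made on cytosolic ribosomes from nuclear mRNAs and imported. A small set of core subunits of complexes I, III, IV and V is encoded in mitochondrial DNA and made by separate mitochondrial ribosomes, so every complex but II joins products of both.

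Many subunit genes have processed pseudogenes, and a read that aligned to several loci was not counted, which bears on how each member was measured. The c subunits of ATP synthase, which form its rotating ring, come from Atp5g1 (mm10 chromosome 11, 96068852 to 96075670, minus strand), Atp5g2 (chromosome 15, 102662864 to 102672352, minus strand) and Atp5g3 (chromosome 2, 73908447 to 73911326, minus strand). The last 225 coding bases of the 3 genes are shown because they encode the same 75 residues while the bases differ. Capitals mark the 57 positions at which the 3 are not all alike.
Atp5g1: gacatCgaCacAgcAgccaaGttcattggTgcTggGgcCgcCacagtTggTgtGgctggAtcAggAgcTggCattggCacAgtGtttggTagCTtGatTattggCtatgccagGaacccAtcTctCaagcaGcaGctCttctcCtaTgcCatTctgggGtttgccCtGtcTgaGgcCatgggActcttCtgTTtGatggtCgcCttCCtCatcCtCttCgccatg
Atp5g2: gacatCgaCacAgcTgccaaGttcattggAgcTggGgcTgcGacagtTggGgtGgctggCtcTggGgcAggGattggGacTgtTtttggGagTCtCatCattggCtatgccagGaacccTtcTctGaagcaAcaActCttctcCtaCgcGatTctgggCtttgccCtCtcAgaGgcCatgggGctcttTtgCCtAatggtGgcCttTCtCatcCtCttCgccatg
Atp5g3: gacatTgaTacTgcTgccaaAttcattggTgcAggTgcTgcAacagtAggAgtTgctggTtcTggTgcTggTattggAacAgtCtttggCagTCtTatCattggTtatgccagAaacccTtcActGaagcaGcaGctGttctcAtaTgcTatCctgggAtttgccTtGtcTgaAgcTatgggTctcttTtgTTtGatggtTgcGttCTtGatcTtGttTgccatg
Atp5g1 and Atp5g2 were identical at 191 of these bases, Atp5g1 and Atp5g3 at 180, and Atp5g2 and Atp5g3 at 177. All of the coding sequence of Atp5g1 and of Atp5g2 lay in 30-base stretches also found in transcripts of other genes, among them the pseudogenes Gm10039 and Gm10175, while 0% of Atp5g3 did.

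The first 240 coding bases of 3 further genes are given as examples of a sequence with copies elsewhere and one without. Uqcrb (chromosome 13, 66900617 to 66905378, minus strand) encodes a small subunit of complex III, Sdhd (chromosome 9, 50596357 to 50603812, minus strand) a membrane anchor of complex II, and mt-Co2 a catalytic subunit of complex IV made inside the mitochondrion. Capitals mark bases inside a 30-base stretch that is also in a transcript of another gene.
Uqcrb: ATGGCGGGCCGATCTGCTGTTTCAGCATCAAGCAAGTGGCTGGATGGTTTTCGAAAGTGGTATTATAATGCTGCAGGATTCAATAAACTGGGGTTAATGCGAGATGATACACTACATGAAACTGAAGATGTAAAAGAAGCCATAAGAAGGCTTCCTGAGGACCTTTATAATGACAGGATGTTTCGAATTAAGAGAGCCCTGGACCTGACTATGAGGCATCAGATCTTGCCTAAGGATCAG
Sdhd: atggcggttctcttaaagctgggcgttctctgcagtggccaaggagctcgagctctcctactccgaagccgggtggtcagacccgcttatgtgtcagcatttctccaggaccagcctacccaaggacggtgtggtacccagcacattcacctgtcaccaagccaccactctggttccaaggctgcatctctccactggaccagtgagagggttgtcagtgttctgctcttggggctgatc
mt-Co2: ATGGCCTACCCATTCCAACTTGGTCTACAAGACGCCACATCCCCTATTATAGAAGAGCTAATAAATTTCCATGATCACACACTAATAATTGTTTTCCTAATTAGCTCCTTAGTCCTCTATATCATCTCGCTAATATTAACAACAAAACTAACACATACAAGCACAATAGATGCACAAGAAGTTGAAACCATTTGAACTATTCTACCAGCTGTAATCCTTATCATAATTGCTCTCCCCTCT
The stretch of Uqcrb shown was shared in full, with pseudogenes such as Gm16089, and Uqcrb had 116 and 79 counts in the IP libraries and 26 and 45 in total RNA. Sdhd shared none, and had 673 and 825 counts in the IP libraries and 178 and 361 in total RNA. For mt-Co2, which shared all of the stretch shown with Gm28661 and others, the counts were 12, 3, 8 and 6. Not every gene with shared sequence had few counts. Atp5g1, shared in full, had 806 and 878 counts in the IP libraries and 214 and 381 in total RNA. Values of members with shared sequence are uncertain because a read that aligned to several loci was not counted. At least 50% of the coding 30-base stretches were shared for 16 members, all of which were tested.

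Nuclear-encoded subunit mRNAs were on balance slightly more abundant in the RPS2 IP than in total RNA, and mitochondrially encoded mRNAs were less abundant. Of the 80 members with enough counts to test, 25 rose and 0 fell in the edgeR quasi-likelihood test with the replicate number as a block (adjusted p under 0.05), against 6.63% of all 12336 genes tested called higher and 7.55% called lower. The median log2 fold change of members was 0.25, a fold of 1.19, beside 0.01 over all genes tested. It was 0.31 within replicate 1 and 0.19 within replicate 2. Of the 7 mitochondrially encoded mRNAs tested, 6 fell and the median log2 fold change was -0.99. Members and mitochondrially encoded mRNAs differed by 1.24 on the log2 scale, by 1.17 in replicate 1 and by 1.48 in replicate 2.

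The calls rest on comparing IP with total RNA within a replicate number. Without the block the same test called 0 genes of any kind, and at an unadjusted p under 0.05 it gave 10 members higher and 0 lower, against 1.59% and 1.24% of all genes. The block leaves 1 residual degree of freedom for each gene, so its p-values lean on a dispersion shared by all genes, and an exact permutation test of 2 against 2 libraries cannot go below 0.33. With the block, DESeq2 called 9 members higher and edgeR with library size only 12. The members' median was 0.11 without total RNA replicate 1 and 0.42 without total RNA replicate 2. With an offset for GC content and exonic length in the blocked fit, 15 of the 25 kept their call, and Ndufc1, Ndufs6, Ndufa3, Ndufb10, Uqcrfs1, Cox7b, Cox7a2, Cox4i1, Atp5e and Atp5mpl lost it. Log2 ratios were above 0 in both replicate numbers for 54 of the 80 members, against 34.3% of all genes. Both IP libraries lay above both total RNA libraries for 31 members, against 16.9% of all genes, and below for 2 (Ndufv3 and Ndufb7), against 14.9%.

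**Figure D1:**
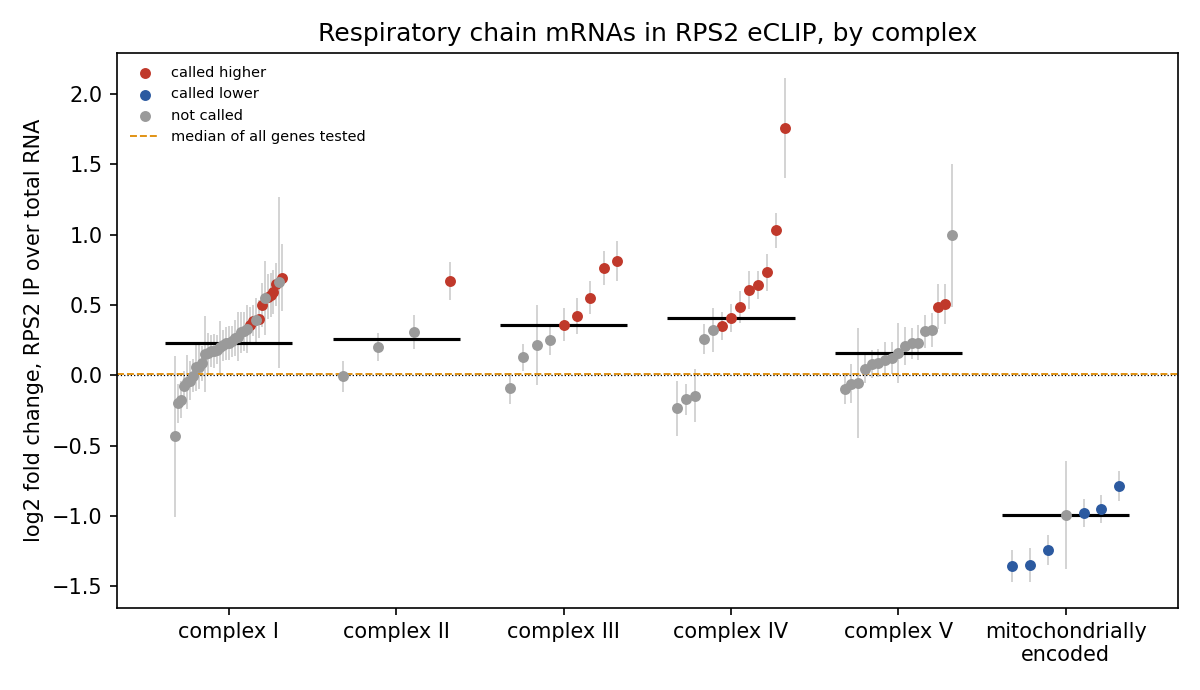
Log2 fold change of RPS2 IP over total RNA (y axis) for each member tested, by complex, and for the mitochondrially encoded mRNAs; bars are standard errors from the fit with the replicate block, black lines are medians and the dashed line is the median of all genes. Medians of the 5 complexes lie between 0.16 and 0.41, and all 7 mitochondrially encoded mRNAs lie below 0.

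Complex I, the NADH dehydrogenase, had 37 members, all tested, of which 9 rose (24.3%, against 6.63% of all genes) and 0 fell, with a median log2 fold change of 0.23. The 7 core subunits, which carry the flavin and iron-sulfur clusters, held 1 of these calls. That was Ndufv1, which encodes the NADH-binding flavoprotein. Its level was 93.9 and 122 CPM (read counts scaled by effective library size) in the IP and 69.0 and 96.5 CPM in total RNA, so the groups overlapped although the IP was higher within each replicate number. Ndufv1 rose by a log2 fold change of 0.39 ± 0.11 (SE, adjusted p = 0.0054 by edgeR).

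The other calls of complex I were among the 29 supernumerary subunits, which surround the core. Ndufc1 had the highest log2 fold change of complex I, 0.69 ± 0.24 (SE, edgeR adjusted p = 0.029), with 12.1 and 14.6 CPM in the IP and 6.68 and 9.86 CPM in total RNA. Ndufa1 stood at 34.2 and 35.2 CPM in the IP and at 20.3 and 24.0 CPM in total RNA. With the GC and length offset Ndufc1 had 0.31 and was not called (edgeR adjusted p = 0.53). Both IP values were above both total RNA values for both genes, and Ndufa1 rose by a log2 fold change of 0.65 ± 0.15 (SE, edgeR adjusted p = 0.00047). Ndufb9, Ndufb5, Ndufs6, Ndufa3, Ndufa11 and Ndufb10 rose by between 0.36 and 0.59. The lowest value was that of Ndufb4, -0.43 ± 0.57, on 22 and 11 IP counts against 5 and 14 counts of total RNA, and all of its coding sequence is shared with other transcripts. The core subunit Ndufs8 had a log2 fold change of -0.04. Ndufa4, named for complex I but known as a complex IV subunit, had 0.24. Its relative Ndufa4l2, with at most 30 counts in a library, had 0.66 and passed the low-count filter through the IP libraries alone. Neither gene was called.

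Complex II, succinate dehydrogenase, is the one complex with no mitochondrially encoded subunit, and 1 of its 4 members rose (25%, against 6.63% of all genes). Sdhc (chromosome 1, 171127165 to 171150603, minus strand), which anchors the enzyme in the membrane, was at 38.5 and 51.3 CPM in the IP and at 26.1 and 30.2 CPM in total RNA. The groups did not overlap, and Sdhc rose 1.59-fold (log2 0.67 ± 0.14 SE, edgeR adjusted p = 4.8e-05). The other anchor, Sdhd, was at 48.6 and 74.1 CPM against 39.6 and 59.3 CPM, with a log2 fold change of 0.31 that missed the threshold (edgeR adjusted p = 0.064). Sdha, the flavoprotein that oxidises succinate, had 253 and 296 CPM in the IP and 216 and 263 CPM in total RNA, a log2 fold change of 0.20. Sdhb, the iron-sulfur subunit, had -0.01.

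In complex III, the cytochrome bc1 complex, the median log2 fold change was 0.36 and the median coding length 333 bases. Of its 9 members 5 rose (55.6%, against 6.63% of all genes and 17.9% of other nuclear protein-coding genes of 300 to 600 coding bases). The 5 small subunits held 4 of these calls. Uqcr10 (chromosome 11, 4701973 to 4704342, minus strand) was at 44.9 and 41.6 CPM in the IP and 21.8 and 27.1 CPM in total RNA, and rose 1.76-fold (log2 0.81 ± 0.14 SE, edgeR adjusted p = 9.2e-07). Uqcrh, the hinge protein, was at 74.4 and 73.9 CPM against 40.7 and 46.5 CPM, a log2 fold change of 0.76 ± 0.12 (SE, edgeR adjusted p = 3.3e-08). Uqcrq was at 78.8 and 84.2 CPM against 54.6 and 56.5 CPM, a log2 fold change of 0.55 ± 0.12 (SE, edgeR adjusted p = 7.0e-05). For each of the 3 genes both IP libraries lay above both total RNA libraries.

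Uqcr11, of whose coding stretches 57.6% are shared, rose by 0.36. Uqcrb, shown above, had 0.22 and was not called. Of the subunits that carry electrons or form the core, the Rieske iron-sulfur protein gene Uqcrfs1 rose by 0.42 ± 0.13 (SE, edgeR adjusted p = 0.011), and cytochrome c1 (Cyc1) had 0.25 (edgeR adjusted p = 0.098). With the GC and length offset Uqcrfs1 had 0.14 and was not called (edgeR adjusted p = 0.60), while Cyc1 had 0.32 and was called (edgeR adjusted p = 0.041). The core proteins Uqcrc1 and Uqcrc2 had 0.13 and -0.09, neither called. Uqcrc2 was at 66.7 and 105 CPM in the IP and 69.3 and 115 CPM in total RNA, so its replicates differed more than its groups did.

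Complex IV, cytochrome c oxidase, had a median of 0.41 on the log2 scale and a median coding length of 264 bases. Of its 13 tested members 8 rose (61.5%, against 6.63% of all genes and 27.5% of other nuclear protein-coding genes under 300 coding bases). Its order against complex III was not fixed, since with the GC and length offset the medians were 0.30 and 0.32, and within replicate 1 they were 0.52 and 0.42 but within replicate 2 they were 0.32 and 0.42. Its nuclear subunits surround the 3 catalytic subunits made in the mitochondrion. Cox6c (chromosome 15, 35925886 to 35938246, minus strand) was at 56.8 and 74.3 CPM in the IP and 30.1 and 34.0 CPM in total RNA, without overlap. Its log2 fold change was 1.03 ± 0.13 (SE, 2.04-fold, edgeR adjusted p = 2.0e-13), and 67.8% of its coding stretches are shared with other transcripts. Cox8a (chromosome 19, 7215158 to 7217616, minus strand), of whose coding stretches 0.562% are shared, was at 230.1 and 189.1 CPM against 146 and 122 CPM, and rose by 0.64 ± 0.10 (SE, edgeR adjusted p = 5.4e-08). Cox6b2, known as the testis form of Cox6b, had the largest log2 fold change of any member, 1.76 ± 0.35 (SE, edgeR adjusted p = 3.4e-05), but on 22 and 4 counts in total RNA, of which 1 library reached the low-count filter, against 173 and 53 in the IP, and its CPM overlapped between the groups.

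Cox7b and Cox7a2 rose by 0.73 and 0.61, and with the GC and length offset they had 0.30 and 0.30 and were not called (edgeR adjusted p = 0.17 and 0.18). Cox5b, with 74.9% of coding stretches shared, rose by 0.49, and Cox4i1 and Cox6a1, the common forms of their subunits, by 0.41 and 0.35, the former not called with that offset (0.29, edgeR adjusted p = 0.066). Cox6a1 had the highest level per length of any member in total RNA, 531 and 388 CPM per kilobase of exon. Cox8a was next in replicate 1 (268) and Atp5a1 in replicate 2 (295), and Atp5b and Cox6b1 completed the top 5 in both. Cox6b1 (0.26, edgeR adjusted p = 0.087), Cox7c (0.32), Cox6a2 (-0.14) and Cox5a (-0.17) were not called, nor was Cox7a2l, a factor for respiratory supercomplexes, which was lowest at -0.24. The tissue-restricted forms Cox4i2, Cox7a1, Cox7b2, Cox8b and Cox8c had at most 9 counts in any library and were not tested.

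For complex V the median log2 fold change was 0.16, and 2 of its 17 tested members rose (11.8%, against 6.63% of all genes). With the GC and length offset 0 were called higher and 1 lower, Atp5g3. Log2 fold changes of the catalytic subunits of the F1 head were at most 0.09 (Atp5a1 and Atp5b). Atp5b, the beta subunit, was at 812 and 1027 CPM in the IP and 759 and 1027 CPM in total RNA, a log2 fold change of 0.05 ± 0.10 (SE). Atp5a1, the alpha subunit, was at 635 and 939 CPM against 570 and 925 CPM, a log2 fold change of 0.09 ± 0.10 (SE). For both genes the distance between replicates was larger than that between IP and total RNA.

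The calls of complex V were Atp5e, the epsilon subunit of the central stalk, and Atp5mpl, a small membrane subunit. Atp5e was at 42.7 and 37.2 CPM in the IP and 29.2 and 27.0 CPM in total RNA, and rose by 0.51 ± 0.14 (SE, edgeR adjusted p = 0.0044). Atp5mpl rose by 0.49 ± 0.16 (SE, edgeR adjusted p = 0.020). Neither was called with an offset for GC content and length (edgeR adjusted p = 0.18 and 0.47), and the median of complex V was -0.048 without total RNA replicate 1. The 3 c-subunit genes shown above gave log2 fold changes of 0.31 for Atp5g1 (edgeR adjusted p = 0.052), 0.16 for Atp5g2 and -0.10 for Atp5g3, none called, and those of Atp5g1 and Atp5g2 are uncertain because their coding sequence is shared. All 4 tested peripheral stalk genes lay between 0.11 and 0.23. Atp5s, a related protein that is no subunit, had 0.99 ± 0.51 (SE) on 35, 41, 12 and 4 counts, with -0.07 in replicate 1 and 2.15 in replicate 2. Of its total RNA libraries 1 reached the low-count filter. A second gene ID carrying the symbol Atp5o had 0 counts.

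**Figure D2:**
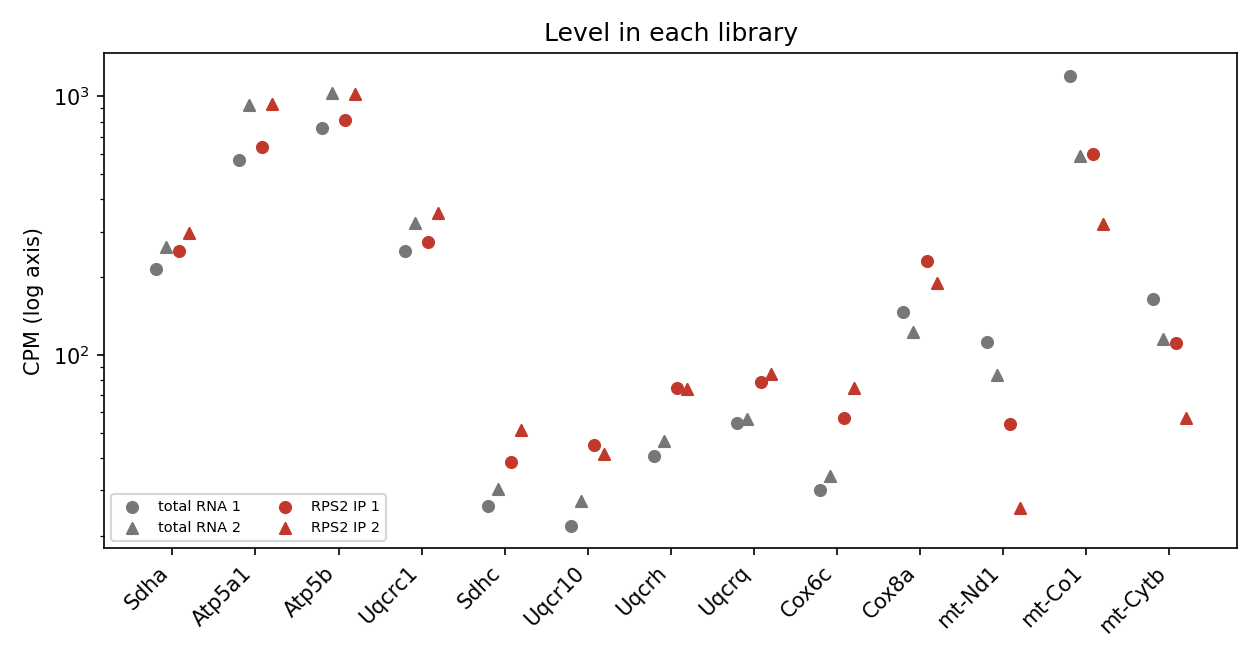
CPM (log axis) in each of the 4 libraries for selected genes, circles for replicate 1 and triangles for replicate 2. IP libraries (red) lie above total RNA (grey) for Sdhc to Cox8a, the replicates lie further apart than IP and total RNA for Atp5a1 and Atp5b, and IP libraries lie below total RNA of the same replicate for mt-Nd1, mt-Co1 and mt-Cytb.

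The mitochondrially encoded mRNAs differed from the members in direction. mt-Nd1, a membrane subunit of complex I, was at 54.0 and 25.7 CPM in the IP and 112 and 83.7 CPM in total RNA, and fell by 1.36 ± 0.12 (SE) on the log2 scale. The groups did not overlap for mt-Nd1, mt-Nd2, mt-Nd4, mt-Nd5 and mt-Cytb. mt-Co1, the catalytic subunit of complex IV, was at 598 and 320 CPM in the IP and 1206 and 591 CPM in total RNA, which overlap, and fell by 0.95. Calls ran from mt-Nd1 to mt-Cytb, which fell by 0.79, and mt-Nd6 had -0.99 (edgeR adjusted p = 0.061). The other 6 had at most 12 counts in any library and were not tested. At least 99% of the coding stretches were shared for mt-Co2, mt-Atp6, mt-Co3, mt-Nd3 and mt-Nd4l, but 6.40% for mt-Atp8, which had 0 counts. Among the mRNAs tested the share was 64.8% for mt-Co1 and 62.8% for mt-Nd4, whose values are uncertain for that reason. It was at most 17.5% for the other mRNAs tested. Summed over all 13, these mRNAs held 0.0953% and 0.0634% of the IP counts, against 0.181% and 0.153% of total RNA.

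**Figure D3:**
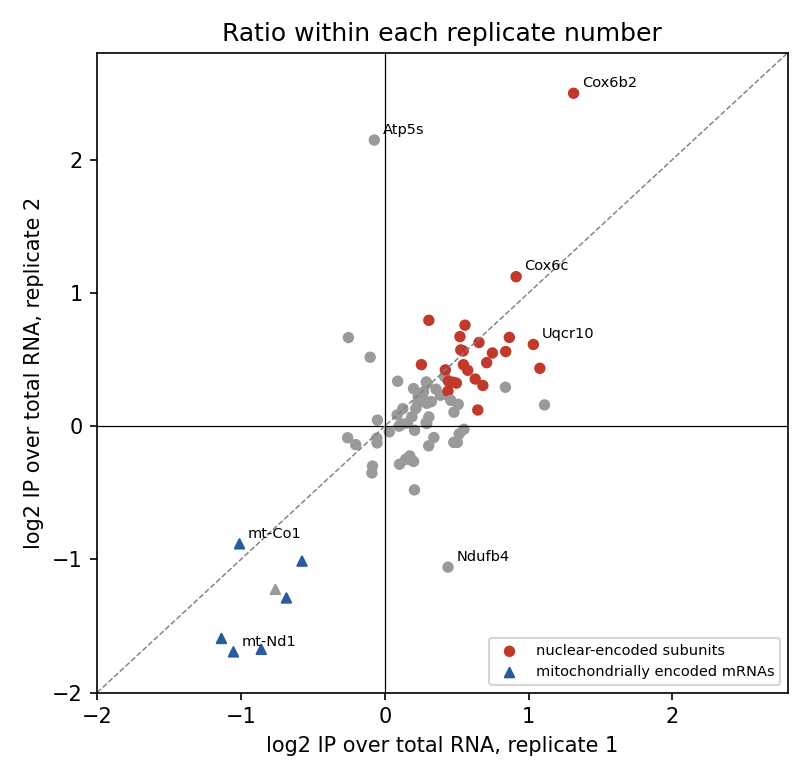
Log2 IP over total RNA in replicate 1 (x axis) and replicate 2 (y axis) for members (circles) and mitochondrially encoded mRNAs (triangles), coloured red where called higher, blue where called lower and grey where not called. All mitochondrially encoded mRNAs tested lie below 0 in both replicates, and 54 of 80 members lie above 0 in both.

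Across the 80 members tested, which share the same libraries, the 2 replicate ratios had a Spearman correlation of 0.51. The log2 fold change had a Spearman correlation of -0.42 with coding length, -0.28 with exonic length, 0.03 with GC content and -0.13 with level per length in total RNA. Over all genes tested the correlation was -0.43 with coding length, -0.17 with exonic length and -0.32 with GC content. Members had short coding sequences, with a median of 417 bases against 1455 over all genes tested. By complex the median coding length was 432 bases for I, 676.5 for II, 333 for III, 264 for IV and 438 for V.

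Under 300 coding bases, 14 of 22 members rose (63.6%), and their median log2 fold change was 0.53. Other nuclear protein-coding genes of that length had 27.5% called higher and a median of 0.39. Between 300 and 600 bases 9 of 36 members rose (25.0%), with a median of 0.22, and of the other genes 17.9% rose, with a median of 0.27. From 600 to 1200 bases 1 of 13 members rose (7.69%) beside 10.5% of other genes, and above that 1 of 9 (11.1%) beside 2.38%. The part of length in the members' values was not tested beyond an offset for GC content and exonic length in the model. Coding length was not in that offset. The log2 fold change with the offset still had a Spearman correlation with coding length, -0.29 in members and -0.28 over all genes. With that offset the members' median was 0.10, 16 members were called higher against 3.79% of all genes, and 3 were called lower, Uqcrc2, Cox5a and Atp5g3, against 3.10%.

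**Figure D4:**
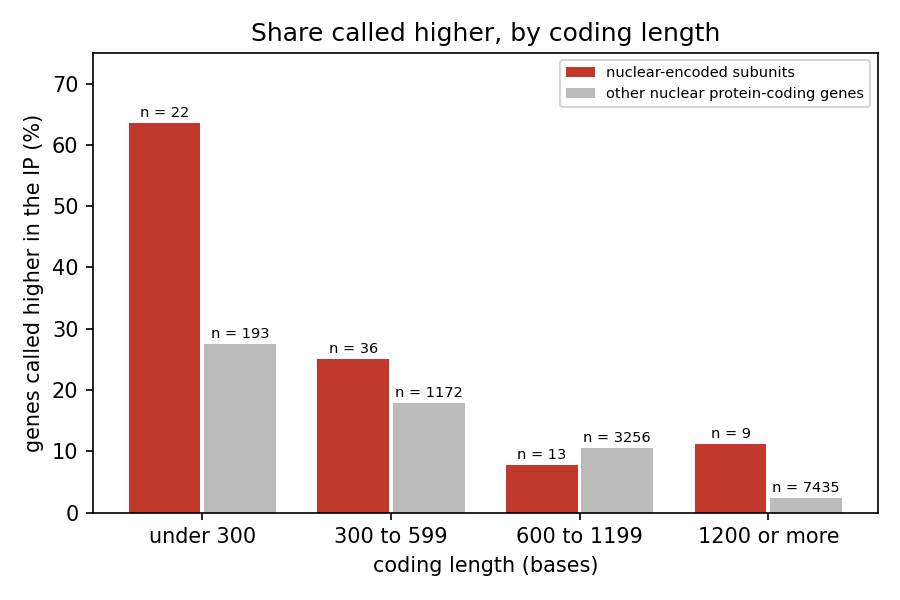
Share of genes called higher in the RPS2 IP (y axis, %) by coding length, for nuclear-encoded subunits (red) and other nuclear protein-coding genes (grey), with the number tested above each bar. Both shares are highest under 300 bases, at 63.6% and 27.5%.

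The replicates themselves differed in the level of the members. In total RNA the median member was 0.28 higher on the log2 scale in replicate 2 than in replicate 1, and 64 of 80 members were higher, while the median over all genes was -0.01. In the IP the median difference was 0.10. The mitochondrially encoded mRNAs differed the other way, by -0.58 in total RNA and -1.08 in the IP. Markers of other cells differed between the replicates too. The 6 astrocyte markers summed to 1862 and 634 CPM in the IP and 1573 and 606 CPM in total RNA, and the 5 microglia markers to 60.1 and 6.83 CPM in the IP and 58.8 and 4.93 CPM in total RNA. The 9 neuron markers summed to 4624 and 4931 CPM in the IP and 4464 and 5438 CPM in total RNA. In total RNA the median neuron marker was 0.33 higher on the log2 scale in replicate 2, and 7 of 9 were higher. In the IP the median difference of the neuron markers was 0.16. The 5 oligodendrocyte markers lay between 40.7 and 49.8 CPM in all libraries, and the 3 endothelial markers reached at most 1.64 CPM. The part of cell makeup in the members' values was not tested, and fewer cells of a type and less RNA per cell cannot be told apart.

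Genes outside the name rule were read in the same fit. Of the 45 assembly factors tested, which build the complexes without staying in them, 5 rose (11.1%) and 0 fell, with a median log2 fold change of 0.27. Over all genes tested 6.63% rose and 7.55% fell. Among the assembly factors the calls were Ndufaf2, Coa5, Coa3, Cox14 and Ttc19, and Coa5, Coa3 and Cox14 rose by 0.86, 0.60 and 0.52. Ndufaf2 had the highest value of the calls, 2.23 ± 0.69 (SE, edgeR adjusted p = 0.013), from 2.67 and 1.98 CPM in the IP and 0.891 and 0.164 CPM in total RNA. Those are 37 and 22 counts against 4 and 1, so Ndufaf2 passed the low-count filter through the IP libraries alone and had to differ in that direction. Ttc19 had the lowest value of the calls, 0.33. Sdhaf4 also passed the filter through the IP libraries alone, and Lyrm7, Sco1 and Ndufaf8 had 1 total RNA library past it. Their values, 0.36 to 1.76, all lay above the list's median, and none was called. With the GC and length offset 1 assembly factor was called higher, Ndufaf2 (edgeR adjusted p = 0.046). The 18 enzymes of pyruvate dehydrogenase and the TCA cycle had a median of 0.04, and 1 rose (5.56%, against 6.63% of all genes), Pdha1 by 0.33. With the GC and length offset Pdha1 had 0.16 and was not called (edgeR adjusted p = 0.45). Cytochrome c (Cycs), which carries electrons from complex III to complex IV, rose by 0.65 (edgeR adjusted p = 0.022), and Ndufab1, the acyl carrier protein of complex I, had 0.09. Cycs was not called with that offset (0.36, edgeR adjusted p = 0.36).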

How the data were processed

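RNA-seq counts came from 2 RPS2 IP and 2 total RNA libraries. The authors trimmed reads with cutadapt, aligned them with STAR to mm10 and, per the file headers, counted them with featureCounts 1.5.3 in stranded mode, without options for reads at several loci. The deposited values are raw counts per gene with no normalisation. Removal of PCR duplicates is not given in the sources used here. Symbols, coding sequences and transcripts were from GENCODE M21, on mm10.

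The main fit used edgeR 4.0.16 under R 4.3.3. After filterByExpr and TMM scaling each gene was tested two-sided by the quasi-likelihood method, with Benjamini-Hochberg adjustment over 12336 genes. The replicate number was a block, since total RNA was taken from the samples used for the IP, and same-numbered libraries deviated together (Pearson r = 0.733 of deviations from group means). Nothing in the labels says that replicates were separate cultures. The p-values of the blocked fit rest on the spread of IP over total RNA within replicate numbers, pooled over all genes, and not on the spread between replicates. Ratios within a replicate used log2 CPM with a prior count of 2. Shared sequence was any 30-base stretch also in a transcript of another gene. DESeq2 1.42.0 and limma-voom (limma 3.58.1) were alternatives. The fit was also run on simulated data with 200 changed genes. Those counts were drawn with the blocked fit's own dispersion for all genes. They cannot show whether the p-values of the blocked fit hold for these data.

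The members, lists, roles within complexes, the 50% limit on shared stretches and the coding-length classes were chosen with earlier results of these data known. Named genes were members and mitochondrially encoded mRNAs called, the highest and lowest of each complex, the 5 highest per length, complexes II and III, the paralog families, and the highest and lowest call of each list. Other genes were named after their values were seen.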

Additional observations from a re-analysis of the deposited data

How the results depend on the processing

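The number of members called higher, 25 with the replicate block, was 0 without the block and 0 when any 1 library was left out, which breaks a pair and removes the block. It was 9 with DESeq2 and the block (25 members had no adjusted p there), 12 with library size only, 16 with the GC and length offset, and 10 at an adjusted p under 0.01 with a fold over 1.5. Median-ratio size factors, no filter, at least 10 counts in every library, thinning, removal of the mitochondrially encoded mRNAs and limma-voom, which was added after seeing the data, gave 19 to 27. Members called lower numbered 3 with the GC and length offset and 0 in all other settings. Of the 25 called members 8 (Ndufb9, Sdhc, Uqcr10, Uqcrh, Uqcrq, Cox6b2, Cox6c and Cox8a) kept their call in every blocked alternative that gave them an adjusted p. For Cox6b2 these were 7 alternatives. It reached the low-count filter in 2 IP libraries but 1 total RNA library, which favours a higher value in the IP. Of the 482 values of single called genes in the alternatives, members and mitochondrially encoded mRNAs together, 0 changed sign and 197 lost their call. Settings with 1 replicate number give no p-value, so no call could be lost there. These genes were picked by their calls in the same libraries, so their kept signs are no independent support. The members' median moved to 0.16 with library size only and 0.10 with the GC and length offset. Leaving out a library or replicate number gave 0.11 to 0.42, lowest without total RNA replicate 1 and highest without total RNA replicate 2. With that offset the medians of complexes I, II, III, IV and V were 0.051, 0.075, 0.32, 0.30 and 0.0024, that of the mitochondrially encoded mRNAs -1.39 and the difference between them and the members 1.49. Leaving out libraries or replicate numbers gave 0.075 to 0.42 for complex I, 0.021 to 0.49 for complex II, 0.19 to 0.58 for complex III, 0.32 to 0.55 for complex IV, -0.048 to 0.38 for complex V, -1.93 to -0.60 for the mitochondrially encoded mRNAs and 0.76 to 2.26 for the difference. The median of complex II, whose replicate ratios happened to lie close together, was 0.24 with DESeq2 with the replicate block, 0.17 with library size only, 0.24 with median-ratio size factors, 0.28 with no low-count filter, 0.27 with libraries thinned to the smallest total. The median of complex III, whose replicate ratios happened to lie close together, was 0.36 with no replicate block, 0.34 with DESeq2 with the replicate block, 0.28 with library size only, 0.34 with median-ratio size factors, 0.38 with no low-count filter, 0.37 with at least 10 counts in every library, 0.37 with libraries thinned to the smallest total. The causes of these moves were not tested. Without members that share a stretch with an annotated pseudogene the members' median was 0.31, without those sharing 50% or more of coding stretches, added after seeing the data, it was 0.25, without Atp5g2, which holds a small RNA in its exons, 0.25, and without Atp5s, Cox7a2l and Ndufa4l2 0.24. Depth limits members with few counts, such as Ndufb4, Atp5l and Cox6b2.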
